A study of Mus musculus with 6 samples.

Results

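Skeletal muscle fibres are built from a small set of genes that few other cells use, and 40 of these genes were followed here in adipocyte cultures with and without Nelfb. The list was fixed by symbol, with earlier results of these data known. It holds the myogenic transcription factors and the embryonic and neonatal, adult fast and adult slow forms of the contractile proteins. It also holds the structural, calcium-handling and energy proteins that all fibres share. The table of 17924 genes held 31 of the 40. Myf5, Pax7, Myh2, Myh4, Mybpc2, Pvalb, Myl2, Myl3 and Tcap have no row in it and were not analysed here. Every listed gene reached 10 reads in at least 1 library, and the levels of the genes without a row are not known.

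In developing muscle, the basic helix-loop-helix factors Myf5 and MyoD commit cells to the muscle lineage, and myogenin and Myf6 then drive their differentiation into fibres that fuse from single cells. Myosin heavy chain, actin, troponin and myosin light chain genes occur in families, and a fibre passes from embryonic and neonatal members to adult fast or slow ones. In the mouse, a thin sheet of skeletal muscle, the panniculus carnosus, lies under the dermal fat of the back.

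RNA was sequenced from fibroblasts of the dorsal dermis of newborn (P0) mice on a C57BL/6J background, kept for 14 days in a medium that drives adipocyte differentiation. CTL cells carried Pdgfra-Cre with Nelfb fl/wt or Nelfb wt/wt, and Nelfb-/- cells carried Pdgfra-Cre with Nelfb fl/fl, so that Cre was present in both groups. Nelfb encodes a subunit of the negative elongation factor, which holds RNA polymerase II in a paused state near promoters, and the comparison asks how its loss in the Pdgfra lineage alters the RNA of these cultures. Cells outside that lineage keep the gene, and each library is the RNA of a whole culture. Each group had 3 libraries, described in the study as biological replicates, while the labels do not say whether they came from separate animals. The p-values measure the spread between these libraries.

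Values are in CPM, which give each gene's reads as a share of 1e+06 reads on all listed genes, and the libraries held 17.2 M to 29.4 M such reads (M, 1e+06). A level of 3 reads, used as the floor, was worth 0.102 to 0.175 CPM. Nelfb itself lay at 17.3, 19.6 and 22.3 CPM in the CTL libraries (replicates 1, 2 and 3, the order kept throughout) and at 5.50, 3.90 and 5.55 CPM in the Nelfb-/- libraries (log2 fold change -1.99 ± 0.22 SE, limma adjusted p = 0.00502). The 8 adipocyte markers were measured in both groups, with summed levels of 20837 to 34665 CPM in CTL and 13134 to 19338 CPM in Nelfb-/- cells. The libraries also divided in a way that the genotype does not explain: over all tested genes, CTL replicates 1 and 2 and Nelfb-/- replicate 1 deviated from their group means in one direction, and CTL replicate 3 and Nelfb-/- replicates 2 and 3 in the other. That division was seen in these values and is not named in the labels.

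The sequences below are promoter windows of genes that hold a large part of the reads and of Myog, the only myogenic factor with enough reads to be tested. They come from RefSeq (GRCm38.p6), run 5′ to 3′ on the strand of the gene from 250 bases before to 50 bases after its RefSeq start, and capitals mark the E-box CANNTG, which myogenic factors and many other helix-loop-helix proteins bind, and the TATA form TATAAA, on either strand. The windows are Myog at chr1:134289754-134290053 (plus strand), Myh3 at chr11:67078050-67078349 (plus), Myh8 at chr11:67276874-67277173 (plus) and Acta1 at chr8:123894726-123895025 (minus).
Myog: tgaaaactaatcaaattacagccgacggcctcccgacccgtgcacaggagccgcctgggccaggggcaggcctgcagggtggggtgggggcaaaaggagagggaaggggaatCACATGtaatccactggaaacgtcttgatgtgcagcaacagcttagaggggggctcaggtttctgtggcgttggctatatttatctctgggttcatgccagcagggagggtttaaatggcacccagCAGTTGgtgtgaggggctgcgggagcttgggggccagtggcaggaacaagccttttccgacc
Myh3: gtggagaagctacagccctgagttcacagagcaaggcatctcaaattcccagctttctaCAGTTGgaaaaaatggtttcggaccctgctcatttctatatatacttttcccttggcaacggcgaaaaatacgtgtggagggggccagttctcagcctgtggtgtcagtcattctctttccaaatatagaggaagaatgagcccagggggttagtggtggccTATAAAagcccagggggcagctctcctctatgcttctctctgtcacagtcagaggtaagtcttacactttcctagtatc
Myh8: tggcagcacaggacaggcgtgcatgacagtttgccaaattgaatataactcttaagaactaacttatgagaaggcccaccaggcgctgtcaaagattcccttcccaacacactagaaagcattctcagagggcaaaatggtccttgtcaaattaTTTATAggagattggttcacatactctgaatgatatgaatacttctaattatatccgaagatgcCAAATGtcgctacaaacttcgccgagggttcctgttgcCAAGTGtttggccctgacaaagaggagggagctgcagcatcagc
Acta1: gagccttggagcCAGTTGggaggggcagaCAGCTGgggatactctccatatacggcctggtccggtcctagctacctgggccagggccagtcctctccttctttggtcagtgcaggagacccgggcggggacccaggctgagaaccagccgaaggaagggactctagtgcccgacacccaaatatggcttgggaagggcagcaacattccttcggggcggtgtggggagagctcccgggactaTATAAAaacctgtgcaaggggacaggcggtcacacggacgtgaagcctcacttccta
The Myog window held 2 E-boxes, which began 138 and 12 bases before the start. The Acta1 window also held 2, of which 1, beginning 221 bases before the start, had the form CAGCTG. Windows were at hand for 24 of the 31 genes. CANNTG was present in 21 of these 24 (87.5%) and in 72.3% of all 32817 promoter windows, and CAGCTG, which is a form of CANNTG and was counted in both, in 10 (41.7%) and 16.3%. TATAAA was present in 7 (29.2%) and 13.6%, and a MEF2 form (CTA and TAG with 4 bases between them) in 2 (8.33%), those of Ttn and Des, and 3.69%. These shares describe letters in a window, and no binding was measured at these windows here.

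The skeletal muscle genes were higher in Nelfb-/- cultures than in CTL cultures across all 5 roles. Of the 31 genes in the table, 28 had every Nelfb-/- library above every CTL library, against 22% of all listed genes. Of the 31, 6 were at or under the floor in every CTL library and had a row only through their Nelfb-/- reads. The 26 genes whose mean over the 6 libraries reached 10 reads were tested with limma, and 22 of them were upregulated at an adjusted p of at most 0.05 and at least 2-fold, while 7.58% of the 16252 genes tested were upregulated and 3.64% downregulated by the same limits. The log2 fold change was above 0 in all 26, and in 54.6% of all genes tested. The adjusted p of the 22 ran from 0.00335 to 0.0478, adjusted over all genes tested. As the list was chosen with earlier results of these data known, the shares of all genes describe it and do not test it.

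**Figure D1:**
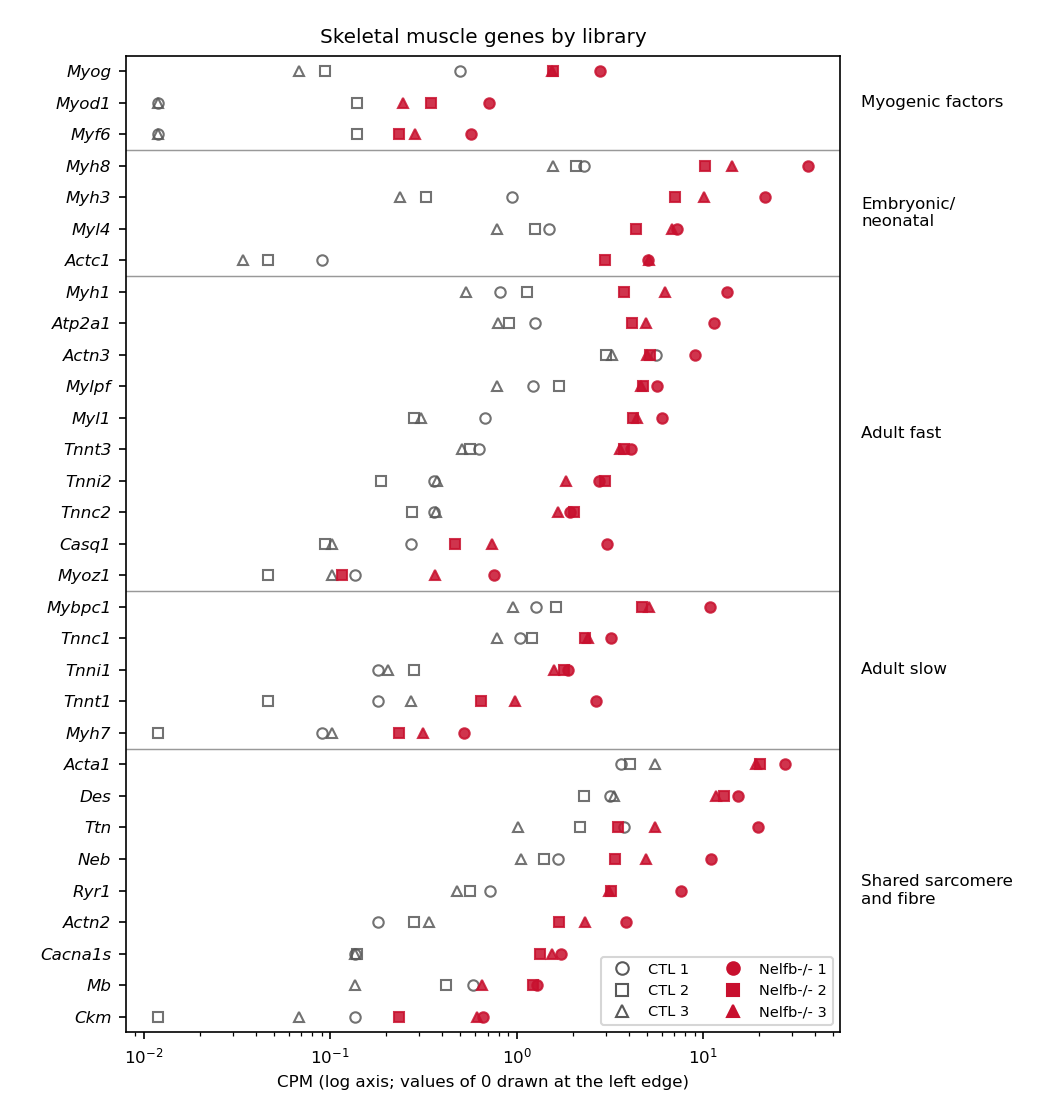
CPM of the 31 skeletal muscle genes (log axis) in each of the 3 CTL libraries (open grey symbols) and the 3 Nelfb-/- libraries (filled red symbols), by role, with values of 0 drawn at the left edge. All Nelfb-/- libraries lie to the right of all CTL libraries in 28 genes, and the exceptions are Actn3, Myoz1 and Ttn.

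The median log2 fold change of the 26 was 2.64, and that of all genes tested was 0.07. Fold changes are on the scale of log2(reads + 1) at a common depth, which understates the change of genes with few reads. A gene low in CTL could pass the filter only through its Nelfb-/- reads, and this was so for 11 of the 26. Of the 15 whose CTL mean alone was at or above the filter, 13 were upregulated, against 6.09% of the 15629 such genes. Without Nelfb-/- replicate 3 the number upregulated fell to 10, which were Myh3, Actc1, Tnnt3, Tnni2, Myl1, Tnni1, Acta1, Des, Cacna1s and Ryr1, and 426 rather than 1824 genes of the whole table then passed in either direction. With 3 libraries a group, the smallest p that an exact permutation test could reach for 1 gene is 0.1.

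Summed over the 31 genes, the level was 33.4, 26.8 and 24.2 CPM in CTL (28.1 ± 4.76, SD, n = 3) and 240, 116 and 132 CPM in Nelfb-/- cultures (163 ± 67.8, SD, n = 3). The groups did not overlap, and the ratio of the means was 5.78, or 4.40 without Nelfb-/- replicate 1, the highest library. The division of the libraries described above was drawn from these same values. On either side of it, the summed level was higher in every Nelfb-/- library than in every CTL library. The ratio of the sums was 7.98 where Nelfb-/- replicate 1 met CTL replicates 1 and 2, and 5.12 where Nelfb-/- replicates 2 and 3 met CTL replicate 3. In RNA from whole cultures, more muscle cells and more of this RNA in each such cell cannot be told apart.

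**Figure D2:**
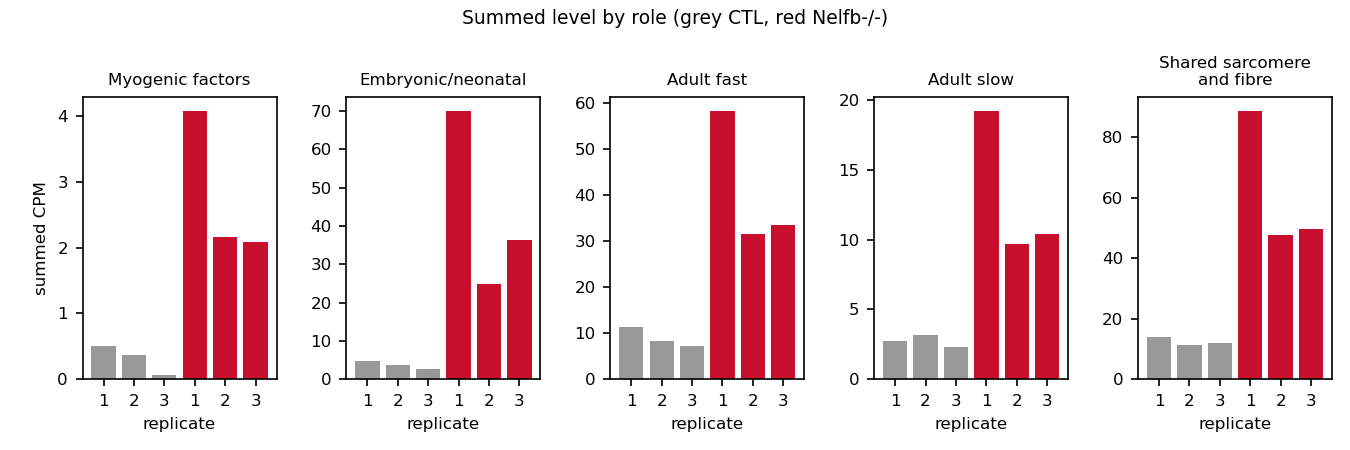
Summed CPM of the genes of each role in the 6 libraries (grey bars CTL, red bars Nelfb-/-, replicates 1 to 3, linear axes that start at 0 and differ in scale). Every red bar is above every grey bar in its panel, and Nelfb-/- replicate 1 is the highest in all 5.

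The myogenic factors were low in all cultures. Myog (myogenin; chr1:134289989-134292548, plus strand), which drives the differentiation of committed myoblasts, was at 0.496, 0.0933 and 0.0680 CPM in CTL and at 2.80, 1.57 and 1.55 CPM in Nelfb-/- cultures. The lowest Nelfb-/- library was 3.13 times the highest CTL library, and Myog was upregulated (log2 fold change 3.25 ± 0.68 SE, limma adjusted p = 0.0251). This call rested on 15 reads in CTL and 124 in Nelfb-/- cultures, and it was lost without CTL replicate 2 and without each of the Nelfb-/- libraries in turn (adjusted p up to 0.0906).

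Myod1, which commits cells to the muscle lineage, and Myf6, a late factor of fibre maturation, were under the filter and were not tested. Myod1 was at 0, 0.140 and 0 CPM in CTL and at 0.711, 0.349 and 0.245 CPM in Nelfb-/- cultures. Pooled over libraries this was 3 reads against 27, a ratio of 10.5 with a 95% counting interval of 3.22 to 53.9. Myf6 was at 0, 0.140 and 0 CPM in CTL and at 0.569, 0.233 and 0.286 CPM in Nelfb-/- cultures, a pooled ratio of 8.92 (2.69 to 46.4). Such intervals are exact and cover counting error only. Every listed gene reached 10 reads in at least 1 library. Myod1, Myf6 and every other gene given a pooled ratio here did so only in Nelfb-/- cultures, and the intervals do not allow for this. In Myod1 and Myf6 the reads of CTL were all in replicate 2, at the floor, and all Nelfb-/- libraries were above it.

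The embryonic and neonatal genes included Actc1 and Myh3, which had the highest fitted log2 fold changes of the 26, while Myl4 lay below the median. Their summed level was 2.62 to 4.83 CPM in CTL and 24.7 to 70.1 CPM in Nelfb-/- cultures, a ratio of 11.8 (8.21 without Nelfb-/- replicate 1), and all 4 were upregulated. Myh3, the embryonic myosin heavy chain (chr11:67078300-67102291, plus strand), was at 0.947, 0.327 and 0.238 CPM in CTL and at 21.4, 7.10 and 10.1 CPM in Nelfb-/- cultures. Its lowest Nelfb-/- library was 7.50 times its highest CTL library, and it was upregulated (log2 fold change 4.62 ± 0.61 SE, limma adjusted p = 0.00751). Actc1 (chr2:114047282-114053548, minus strand), the cardiac alpha-actin that skeletal muscle also uses before birth, was at 0.0902, 0.0467 and 0.0340 CPM in CTL and at 5.07, 2.97 and 5.14 CPM in Nelfb-/- cultures. No CTL library held more than 2 reads of it, and the pooled reads were 4 against 284, a ratio of 82.6 with a counting interval of 31.9 to 305. Its adjusted p of 0.00335 in limma was the lowest of the 26 genes.

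Myh8, the neonatal myosin heavy chain (chr11:67277124-67308634, plus strand), was present in CTL cultures too, at 2.30, 2.08 and 1.56 CPM, and reached 36.3, 10.3 and 14.3 CPM in Nelfb-/- cultures (log2 fold change 3.13 ± 0.48 SE, limma adjusted p = 0.0107). Myl4, the light chain of embryonic muscle and of the atria, went from 1.49, 1.26 and 0.782 CPM to 7.25, 4.37 and 6.77 CPM (2.35 ± 0.35, adjusted p = 0.0102). Neither gene overlapped between the groups, and both calls were lost without Nelfb-/- replicate 3, with adjusted p of 0.0513 for Myh8 and 0.0623 for Myl4.

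**Figure D3:**
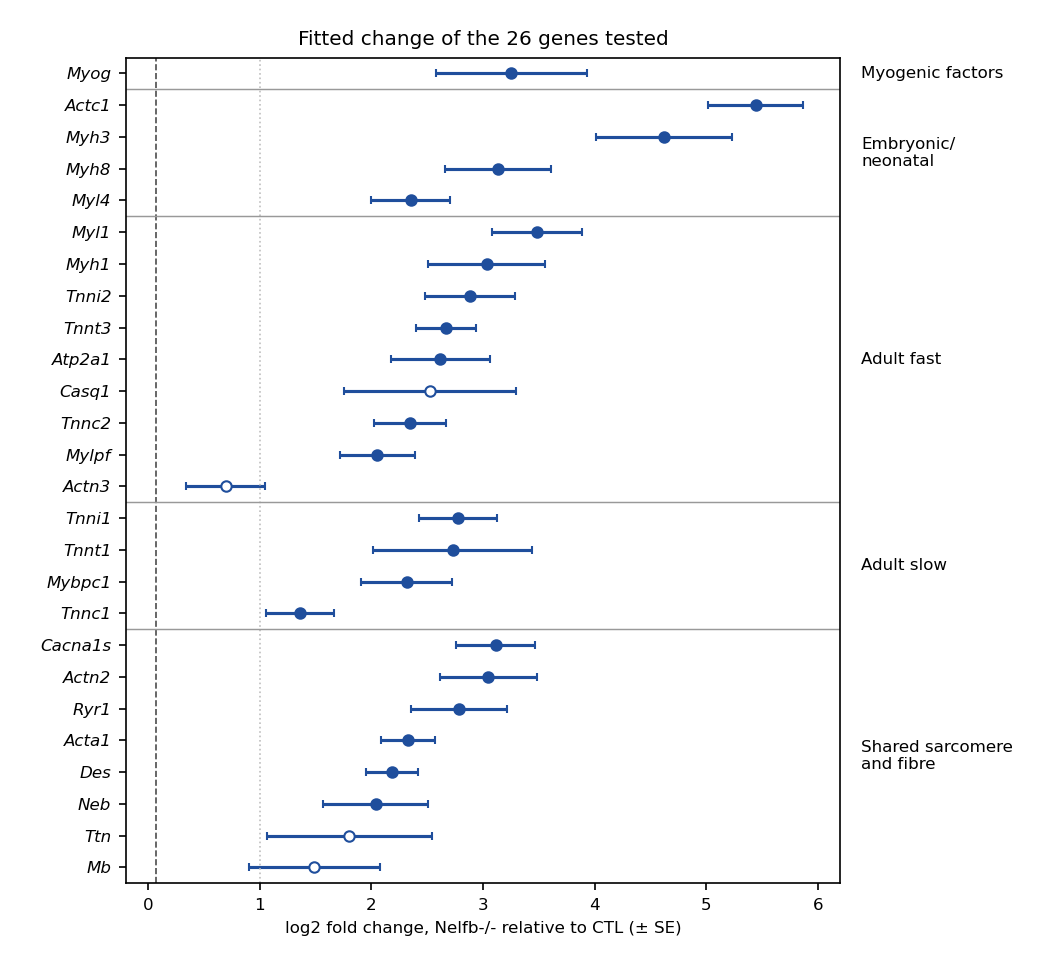
Log2 fold change of Nelfb-/- relative to CTL (point) ± SE (bar) from limma for the 26 genes tested, by role. Filled points passed both limits and open points (Casq1, Actn3, Ttn, Mb) did not, the dashed line is the median of all genes tested (0.07), and the dotted line marks a 2-fold change.

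Of the adult fast genes, 10 of 14 were in the table, 9 were tested and 7 were upregulated. Tnnt3, Tnni2 and Tnnc2 are the fast troponin subunits, which switch the thin filament on with calcium. Tnnt3 was at 0.631, 0.560 and 0.510 CPM in CTL and at 4.13, 3.78 and 3.59 CPM in Nelfb-/- cultures (log2 fold change 2.67 ± 0.27 SE, limma adjusted p = 0.00418), and its coefficient of variation among the Nelfb-/- libraries, 7.07%, was the lowest of the 31 genes. Tnni2 was at 0.361, 0.187 and 0.374 CPM in CTL and at 2.75, 2.97 and 1.84 CPM in Nelfb-/- cultures (2.88 ± 0.40, adjusted p = 0.00856). In both, the groups were apart, and in Tnni2 replicate 2 rather than replicate 1 was the highest Nelfb-/- library. Tnnc2 had a log2 fold change of 2.35 (adjusted p = 0.00837), but 74% of its exon bases are shared with Ube2c on the opposite strand. Ube2c, a mitotic ubiquitin-conjugating enzyme, lay at 7.61 to 24.7 CPM in CTL and at 3.89 to 18.6 CPM in Nelfb-/- cultures, and whether the counting used strand is not given in the sources used here.

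The fast light chains changed in the same direction. Myl1, the alkali light chain of fast fibres, was at 0.676, 0.280 and 0.306 CPM in CTL and at 6.01, 4.22 and 4.40 CPM in Nelfb-/- cultures (log2 fold change 3.48 ± 0.41 SE, limma adjusted p = 0.00572). Mylpf, the regulatory light chain of fast fibres, was at 1.22, 1.68 and 0.782 CPM in CTL and at 5.64, 4.77 and 4.65 CPM in Nelfb-/- cultures (2.05 ± 0.33, adjusted p = 0.0127). Myh1, the IIx myosin heavy chain (chr11:67200052-67224575, plus strand), went from 0.812, 1.14 and 0.538 CPM to 13.4, 3.77 and 6.27 CPM (3.03 ± 0.52, adjusted p = 0.0146). No library of one group reached the range of the other in any of these 3, but the call of Myh1 was lost without CTL replicate 1 (limma adjusted p = 0.0554) and without Nelfb-/- replicate 3 (0.0666). Myh1, Myh3 and Myh8 lie in one cluster of related genes on chromosome 11, and reads can be divided among such genes. The values were whole reads in 1 of 6 libraries for Myh1 and in 3 of 6 for Myh8. They were whole in all 6 for Myh3, so no division of its reads was seen. With which genes the reads of Myh1 and Myh8 were shared is not known.

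Atp2a1, the calcium pump of the fast sarcoplasmic reticulum, was upregulated (log2 fold change 2.62 ± 0.44 SE, limma adjusted p = 0.0136) with 21.9% of its exon bases shared with Rabep2 on the other strand, which itself had a log2 fold change of 0.50 (adjusted p = 0.113). The call of Atp2a1 was lost without CTL replicate 2 and without Nelfb-/- replicate 3. Casq1, the calcium store protein of fast fibres, was higher in all Nelfb-/- libraries (3.03, 0.466 and 0.734 CPM) than in CTL (0.271, 0.0933 and 0.102 CPM) and did not pass the test (2.53 ± 0.77, adjusted p = 0.0726). Actn3, the alpha-actinin of fast Z-discs (chr19:4861216-4877909, minus strand), differed least of the 26. It was at 5.59, 3.03 and 3.23 CPM in CTL and at 9.06, 5.18 and 5.02 CPM in Nelfb-/- cultures, the groups overlapped, and the log2 fold change was 0.69 ± 0.36 (adjusted p = 0.230). Myoz1, a calcineurin-binding Z-disc protein, was not tested and overlapped between groups, with 7 reads against 27 pooled, a ratio of 4.49 (1.91 to 12.2).

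All 4 adult slow genes tested were upregulated. Tnni1, the slow inhibitory troponin subunit, was at 0.180, 0.280 and 0.204 CPM in CTL and at 1.90, 1.80 and 1.59 CPM in Nelfb-/- cultures (log2 fold change 2.78 ± 0.35 SE, limma adjusted p = 0.00660). Mybpc1, the slow myosin-binding protein C, was at 1.26, 1.63 and 0.952 CPM in CTL and at 11.0, 4.71 and 5.10 CPM in Nelfb-/- cultures (2.31 ± 0.41, adjusted p = 0.0156), a call lost without CTL replicate 1 and without Nelfb-/- replicate 3. Tnnt1 and Tnnc1, the other slow troponin subunits, had log2 fold changes of 2.73 ± 0.71 (adjusted p = 0.0478) and 1.36 ± 0.31 (adjusted p = 0.0317). Both were apart between the groups, but these were the least stable calls, each lost in 6 of the alternative analyses. Myh7, the slow and cardiac beta-myosin heavy chain, was under the filter, with 5 reads against 23 pooled and a ratio of 5.35 (1.99 to 18.0).

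Among the genes that all skeletal fibres share, 6 of the 8 tested were upregulated. Acta1, the skeletal alpha-actin of the thin filament (chr8:123891769-123894751, minus strand), was at 3.65, 4.06 and 5.51 CPM in CTL and at 27.5, 20.1 and 19.2 CPM in Nelfb-/- cultures (log2 fold change 2.33 ± 0.24 SE, limma adjusted p = 0.00427). Des, the intermediate filament desmin that links Z-discs (chr1:75360329-75368579, plus strand), was at 3.16, 2.29 and 3.33 CPM in CTL and at 15.5, 13.0 and 11.7 CPM in Nelfb-/- cultures (2.19 ± 0.23, adjusted p = 0.00477). Desmin is also made by smooth muscle, whose markers are given below. Both genes were among the highest of the list in CTL and were far apart between the groups, and both calls held without each library in turn.

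Of the proteins that release calcium in the fibre, Cacna1s and Ryr1 were upregulated, while Casq1, given above, did not pass the test. Neither did Stac3, Jph1, Jph2, Cacnb1 and Casq2 of the list of excitation genes, with log2 fold changes of -0.81, -0.34, -0.09, 0.22 and 0.31, while Cacng1, another subunit of the channel of Cacna1s, was upregulated (2.97, limma adjusted p = 0.0128). Cacna1s, the voltage sensor of the T-tubule, was at 0.135, 0.140 and 0.136 CPM in CTL and at 1.74, 1.33 and 1.54 CPM in Nelfb-/- cultures (log2 fold change 3.11 ± 0.35 SE, limma adjusted p = 0.00550). Ryr1, the calcium release channel that it opens, was at 0.722, 0.560 and 0.476 CPM in CTL and at 7.63, 3.20 and 3.14 CPM in Nelfb-/- cultures (2.79 ± 0.43, adjusted p = 0.0112). The groups did not overlap in either gene, and the CTL level of Cacna1s rested on 10 reads in all.

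Actn2, an alpha-actinin of the Z-disc, was upregulated (log2 fold change 3.05 ± 0.44 SE, limma adjusted p = 0.00928), as was Neb, the nebulin ruler of the thin filament (2.04 ± 0.47, adjusted p = 0.0328). The call of Neb was lost without each CTL library in turn and without Nelfb-/- replicate 3 (limma adjusted p of 0.0573 to 0.106). Ttn, the titin spring (chr2:76703980-76982547, minus strand), was at 3.79, 2.19 and 1.02 CPM in CTL and at 19.6, 3.49 and 5.55 CPM in Nelfb-/- cultures. Nelfb-/- replicate 2 was below CTL replicate 1, and Ttn did not pass (1.80 ± 0.74, adjusted p = 0.148). Mb, the oxygen-binding myoglobin, was apart by a small margin, with 0.586, 0.420 and 0.136 CPM in CTL against 1.28, 1.22 and 0.653 CPM in Nelfb-/- cultures (1.49 ± 0.58, adjusted p = 0.134). Ckm, the muscle creatine kinase, was not tested and had 5 pooled reads against 33, a ratio of 7.68 (2.98 to 25.2).

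Levels of different genes were compared as CPM per kb of mRNA. In Nelfb-/- cultures Acta1 was the highest at a mean of 15.4 CPM per kb, above the next gene, Mylpf, in every library. Mylpf (6.56), Myl4 (6.50), Myl1 (4.51), Des (4.42) and Tnni2 (3.77) followed, and each of these overlapped its neighbour in the order. Ttn (0.0893) and Myh7 (0.0571) were the lowest. The order had 1 gene set apart at the top and a continuous series below it.

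The mix of myosin heavy chains was read from the same length-corrected levels. In CTL cultures Myh8 made up 59.1% ± 4.40 (SD, n = 3) of the summed level of the 4 measured chains, Myh1 24.7% ± 6.67, Myh3 14.1% ± 7.80 and Myh7 2.08% ± 2.05. In Nelfb-/- cultures Myh8 made up 47.9% ± 2.29, Myh3 32.3% ± 1.77, Myh1 18.9% ± 1.32 and Myh7 0.92% ± 0.19. The neonatal chain led in both groups. The Myh3 share was 9.35% to 23.1% in CTL and 30.2% to 33.5% in Nelfb-/- cultures, without overlap, and the Myh8 share was lower in every Nelfb-/- library than in every CTL library. The CTL libraries held only 72 to 92 reads on these chains. In CTL replicate 1, the exact 95% interval of the Myh3 share of reads, 14.7% to 32.8%, reached into the range of the Nelfb-/- libraries, and for Myh8 the intervals of CTL replicates 1 (44.7% to 65.8%) and 2 (47.3% to 70.4%) reached into the Nelfb-/- range of 46.1% to 50.7% of reads. These intervals take the reads as correctly divided among the paralogs.

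**Figure D4:**
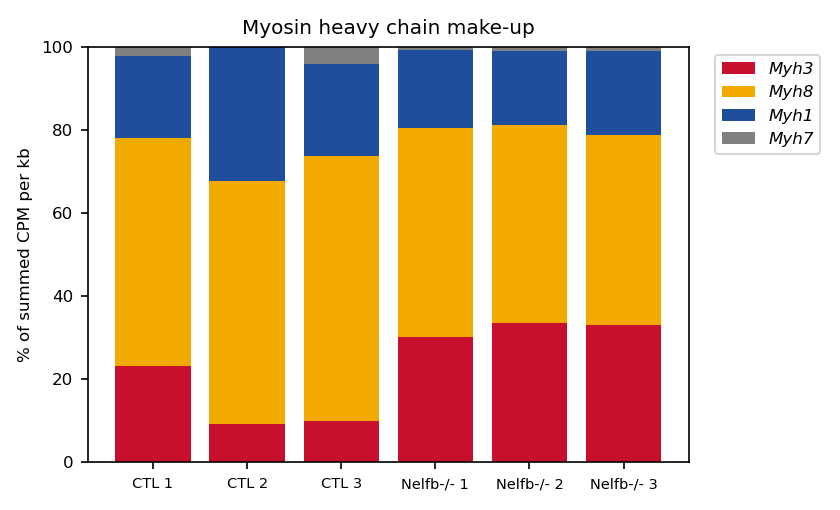
Share of each myosin heavy chain gene in the summed CPM per kb of Myh3, Myh8, Myh1 and Myh7, in percent, for each of the 6 libraries. Myh8 (yellow) is the largest part of every bar, and the Myh3 part (red) is 30.2% to 33.5% in the Nelfb-/- libraries and 9.35% to 23.1% in the CTL libraries.

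Fast and slow partners of the troponins were compared in the same way. The ratio of Tnni2 to Tnni1 per kb was 3.44, 1.15 and 3.16 in CTL and 2.50, 2.83 and 1.99 in Nelfb-/- cultures, so that the groups overlapped. The ratio of Tnnt3 to Tnnt1 was 3.44 and 1.84 in CTL replicates 1 and 3, with Tnnt1 under the floor in replicate 2, and 1.52, 5.80 and 3.60 in Nelfb-/- cultures, again within one range. The ratio of Tnnc2 to Tnnc1 was higher in all Nelfb-/- libraries (0.620, 0.897 and 0.710) than in CTL (0.358, 0.232 and 0.484), with Tnnc2 subject to the overlap with Ube2c. Of these 3 fast to slow ratios, 1 separated the groups.

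Adult fast and embryonic or neonatal partners did not all move as the share of Myh3 did. The ratio of Myl1 to Myl4, an adult fast over an embryonic light chain, was 0.396, 0.194 and 0.341 in CTL and 0.722, 0.843 and 0.566 in Nelfb-/- cultures. It was higher in every Nelfb-/- library, which is toward the adult fast partner. The ratio of Mylpf to Myl4 was 1.01, 1.64 and 1.23 in CTL and 0.957, 1.35 and 0.845 in Nelfb-/- cultures, and that of Myh8 to Myh1 was 2.80, 1.81 and 2.87 in CTL and 2.68, 2.70 and 2.25 in Nelfb-/- cultures. Both overlapped between the groups. The ratio of Acta1 to Actc1 was 5.53, 6.89 and 3.80 in Nelfb-/- cultures. It was not formed in CTL, where Actc1 was at or under the floor. The fitted log2 fold change was 2.33 for Acta1 and 5.44 for Actc1, which is toward the embryonic partner.

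The Nelfb-/- libraries differed widely among themselves. Replicate 1 was the highest of them in 28 of the 31 genes, and replicate 2 was the lowest in 19. The level in replicate 1 was 0.926 to 6.52 times that in replicate 2, with a median of 2.04. The genes fell into a continuous range, from Tnnt3, Tnni1 and Tnnc2, with coefficients of variation of 7.07% to 10.3%, to Myoz1, Ttn and Casq1, with 78.2% to 100%. Ttn, Neb, Tnnt1 and the 3 myosin heavy chains of chromosome 11 were among those with a wide spread. Mylpf, Tnnt3, Tnnc2 and Cacna1s were among those with a narrow one.

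**Figure D5:**
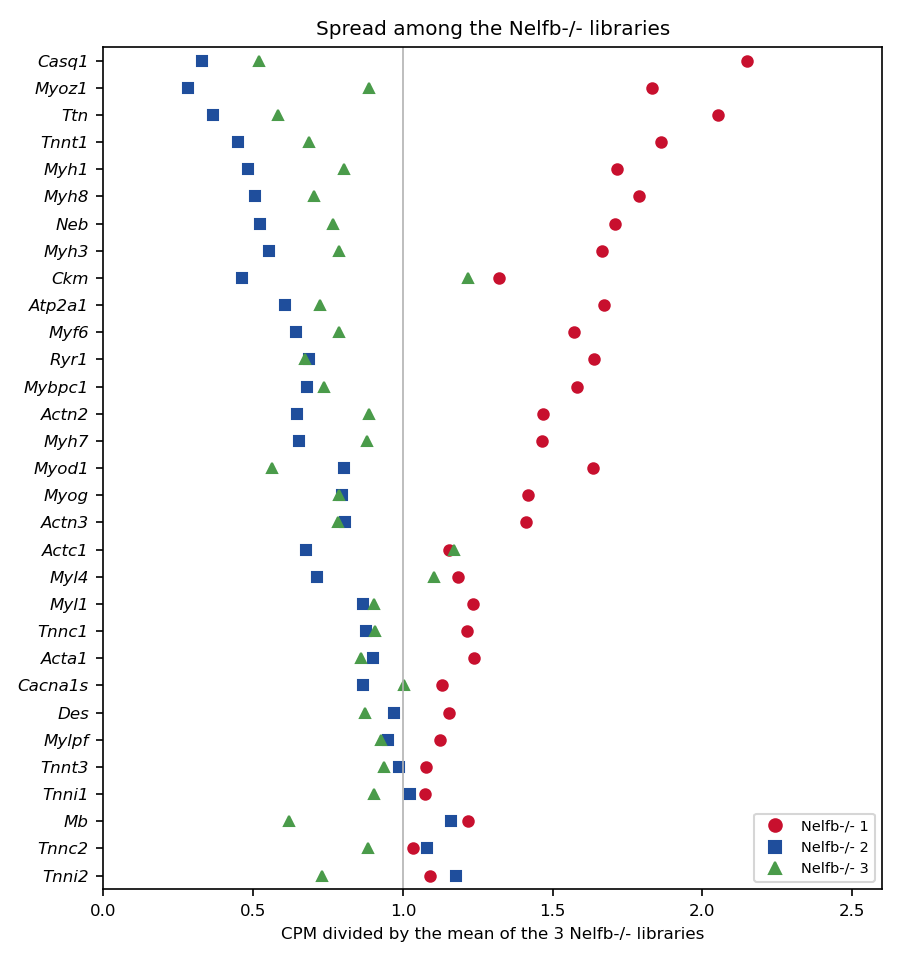
CPM in each Nelfb-/- library divided by the mean of the 3 Nelfb-/- libraries (linear axis), for the 31 genes. They are in order of the ratio of replicate 1 to replicate 2, with the highest at the top. Replicate 1 (red) is the highest in 28 genes and reaches about 2 times the mean for Casq1 and Ttn, while the 3 libraries lie close together for Tnnt3 and Tnni1.

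Genes of cell fusion and fibre structure outside the list were counted in the same way. Of 40 such genes, 34 were in the table, 27 were tested, and 14 were upregulated and 0 downregulated, against 7.58% and 3.64% of all genes tested. The log2 fold change was above 0 in 22 of the 27 and below 0 in 5, with a median of 2.01 and a lowest value of -1.72. Of the 14, 10 reached the filter only through their Nelfb-/- reads. Of the 16 whose CTL mean alone reached it, 4 were upregulated (Myom2, Nrap, Synpo2l and Tpm3), against 6.09% of all such genes. Mymk, the membrane protein that lets myoblasts fuse, was at 0, 0 and 0.0340 CPM in CTL and at 2.09, 0.757 and 1.84 CPM in Nelfb-/- cultures (limma adjusted p = 0.00601). Its partner Mymx had no read in any CTL library and 22 in the Nelfb-/- libraries, at least 2.75-fold higher when CTL is set at the floor of 3 reads per library. Csrp3, a Z-disc LIM protein (2 pooled reads against 62, a ratio of 36.1, 9.57 to 304), and Cav3, the muscle caveolin (2 pooled reads against 59, a ratio of 34.3, 9.09 to 290), were upregulated from CTL levels at or under the floor. Further genes upregulated were Myom3 of the M-band (log2 fold change 2.96), Nrap (2.82), Synpo2l (2.78) and Trim72 (2.67). Without Nelfb-/- replicate 3, only 3 genes of this list and the 2 lists that follow passed the test, against 24 with all libraries.

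The genes upstream of the myogenic factors and of satellite cells mostly did not pass. Of 21 genes, 17 were in the table and 13 tested, and 3 were upregulated, with a median log2 fold change of 0.08. They were Pax3 (2.57, limma adjusted p = 0.0203), the paired-box factor of muscle precursors that also acts in the neural crest, Vcam1 (1.88, adjusted p = 0.0459) and Megf10 (1.98, adjusted p = 0.0107), both also made by other cells. Pax3 reached the filter only through its Nelfb-/- reads. Of the 12 genes whose CTL mean alone reached it, 2 were upregulated, against 6.09% of all such genes. Mef2a, Mef2c and Mef2d, which many cells express, were present at 9.15 CPM or more in all libraries and did not pass the test. Of the 4 genes not tested, Lbx1 (2 pooled CTL reads against 37) and Cdh15 (2 against 30) were higher in every Nelfb-/- library. They reached 10 reads only in Nelfb-/- cultures. Pitx3 was lower in every Nelfb-/- library (29 against 12), and Eya1 overlapped between the groups.

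Of 35 genes of excitation and energy supply, 26 were in the table and 21 tested. Of the 21, 4 were upregulated and 3 downregulated, against 7.58% and 3.64% of all genes tested. The 4 were Musk, the kinase that clusters acetylcholine receptors (log2 fold change 3.10), the receptor subunits Chrnd (2.44) and Chrna1 (2.43), and the calcium channel subunit Cacng1 (2.97). All 4 reached the filter only through their Nelfb-/- reads. Of the 17 genes whose CTL mean alone reached it, 0 were upregulated in limma, against 6.09% of all such genes. Among these 17, Srl and Pgam2 had a positive change and an unadjusted p under 0.05 in limma. Of the other genes of the neuromuscular junction, Dok7 was lower in every Nelfb-/- library (-0.89, adjusted p = 0.177) and Chrnb1 overlapped between the groups (0.57, adjusted p = 0.379). Chrng, the embryonic receptor subunit, was not tested and was higher in every Nelfb-/- library, with 6 pooled reads against 48, a ratio of 9.30 (3.98 to 26.6). The 3 downregulated genes were Cox8b (-4.54), Cox7a1 (-4.18) and Pfkm (-1.05). Cox7a1 and Cox8b encode mitochondrial subunits found in muscle, heart and brown fat, and Pfkm a phosphofructokinase also used elsewhere.

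Markers of other cells were measured in the same libraries. For the counts that follow, 7.58% of all genes tested were upregulated, and 6.09% of those whose CTL mean alone reached the filter. Of 8 macrophage markers, 7 were upregulated, and their summed level was 743, 393 and 206 CPM in CTL against 6453, 2052 and 3492 CPM in Nelfb-/- cultures, highest in replicate 1 and lowest in replicate 2. Of 7 melanocyte and Schwann cell markers in the table, 6 were upregulated, with sums of 19.0 to 22.9 CPM in CTL and 124 to 152 CPM in Nelfb-/- cultures. Of these 6, 3 reached the filter only through their Nelfb-/- reads. The melanocyte genes Tyrp1 and Mlana were at or under the floor in all CTL libraries. The part of these other cells in the muscle values was not tested.

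Smooth and cardiac muscle share some of the proteins above. None of 10 smooth muscle markers passed both limits, whichever the direction: Myh11 and Lmod1 had an unadjusted p under 0.05, Lmod1 with a log2 fold change of -0.90 and an adjusted p of 0.0338 in limma. The sums were 1099, 1232 and 1531 CPM in CTL against 649, 1340 and 1732 CPM in Nelfb-/- cultures, so that the groups overlapped. Nelfb-/- replicate 1, the highest library for the skeletal genes, was the lowest for these. Myh11, Mylk and Lmod1 were lower in every Nelfb-/- library than in every CTL library. Of 8 cardiac markers only Tnnt2, which developing skeletal muscle also expresses, had a row, and it was upregulated (log2 fold change 2.11, limma adjusted p = 0.0319). Of the 8 adipocyte markers, 7 had a log2 fold change below 0, and the median of the 8 was -0.77. None of the 7 passed the limma test, 4 of them (Adipoq, Plin1, Cfd and Pparg) having an unadjusted p under 0.05. Plin1, Fabp4 and Pparg had every Nelfb-/- library below every CTL library. The remaining marker, Lep, was upregulated (log2 fold change 5.26, limma adjusted p = 0.0136).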

How the data were processed

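RNA was sequenced from CTL (n = 3) and Nelfb-/- (n = 3) cultures after 14 days. The authors deposited 1 table of values, which are in CPM, since each library summed to 1e+06 once an offset of 0.0001, present in every value, was subtracted. No length correction had been made, and every listed gene reached 10 reads in at least 1 library. The submitters' processing notes name mm10, STAR 2.7 and Partek 9.0.20.0202, and how reads were assigned to genes, and whether by strand, is not given in the sources used here. The lowest values rose in steps of 1 read, which gave the depth, but between 69.4% and 72.0% of values up to 20 reads were whole to within 0.02 reads, so that no count-based test was run.

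CPM were scaled to reads at 1 depth for all libraries, 22.3 M (M, 1e+06). Genes that averaged 10 reads or more (0.448 CPM) were tested with limma 3.58.1 in R 4.3.3 on log2(reads + 1), with variances allowed to follow abundance and Benjamini-Hochberg adjustment over all 16252 genes, and called at an adjusted p of at most 0.05 and at least 2-fold. The procedure was tested on simulated data. Pooled ratios carry exact conditional binomial intervals at 95% (scipy 1.17.1, Python 3.11.15), which cover counting error only, as reads without molecular identifiers are not independent molecules. Positions are those of the table, read 1-based, and were identical to GENCODE vM21 (GRCm38) for all 31 genes. Lengths are of the mRNA with the longest coding sequence. The genes, their roles and the other lists were chosen with earlier results of these data known. All genes of the list were described, and of the other lists up to 8 genes past the limits by size of change, with the markers at or under the floor. Other genes named (the Mef2 genes, Lbx1, Cdh15, Pitx3, Eya1, Stac3, Jph1, Jph2, Cacnb1, Casq2, Dok7, Chrnb1, Chrng, Myom2, Tpm3, Srl, Pgam2, Mylk, Adipoq, Cfd, Plin1, Fabp4, Pparg, Mymx, Myh11, Lmod1, Ube2c and Rabep2) were added after their values were seen. In total 15 alternatives were run, of which a term for the division of the libraries was chosen after the data were seen.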

Additional observations from a re-analysis of the deposited data

How the results depend on the processing

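Over 15 alternatives, the 388 values of single skeletal muscle genes kept their direction in every case (0 reversed), while 31 calls were lost and 5 gained, and 10 of the 22 genes upregulated kept the call in every alternative. The number of skeletal muscle genes called ranged from 10 (without Nelfb-/- replicate 3) to 21 when 1 library was left out, and from 21 to 25 under the other alternatives. Their median log2 fold change ranged from 2.34 to 2.77 when 1 library was left out and from 2.23 to 2.82 otherwise. Of all genes, 426 (without Nelfb-/- replicate 3) to 2479 (without CTL replicate 3) were called when 1 library was left out, and 3 further omissions gave 758 to 945 (CTL replicate 2, 758; CTL replicate 1, 871; Nelfb-/- replicate 2, 945). Of the 3 other muscle lists, 3 to 27 genes were called when 1 library was left out, and 33 with no filter on low values. A term for the division of the libraries gave 2743 calls over all genes and 25 among the skeletal muscle genes, with Casq1, Ttn and Mb gained. That term was drawn from the deviations of these same values from their group means, so it lowers the remaining spread by construction. Outside leave-one-out, the calls lost were Tnnt1 with a pseudocount of 0.5 reads and with median-of-ratios size factors, and Tnnc1 with the replicate block. The cause of these changes was not tested beyond the smaller number of samples that leaving out a library gives.

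Same-numbered CTL and Nelfb-/- libraries did not pair (correlations of their deviations from the group means of 0.515, -0.395 and 0.518). With the replicate number as a block, 23 skeletal muscle genes and 2175 genes in all were called, with Casq1 and Ttn gained. Median-of-ratios and upper-quartile size factors moved the median of all genes from 0.07 to near 0 and left the direction of Nelfb and of the 26 skeletal muscle genes tested as it was, while the single genes of the other lists were not rerun. Depth limits the myogenic factors, Myoz1, Myh7 and Ckm, which rested on 3 to 7 CTL reads where untested.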
